A study of Mus musculus with 6 samples.

Results

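The transcripts described here encode the cytosolic ribosomal proteins, the proteins that form the large and small subunits of the ribosome around its ribosomal RNAs. Members were chosen by name: protein-coding genes called Rpsa, Rplp0, Rplp1 or Rplp2, or Rpl or Rps followed by a number, outside chromosome 10, where 4 further protein-coding genes of this form were left out. This gave 79 of the 49315 genes listed, 50 of the large and 29 of the small subunit. They lay on 18 chromosomes, with 14 of them on chromosome 7 and 4 on chromosome X.

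RNA was sequenced from liver cells enriched with antibody beads against F4/80, a macrophage surface protein carried by the Kupffer cells that reside in the liver, of 3 WT and 3 Lpcat3KOMac mice on a C57BL/6N background. All 6 mice had been fed a high-fat diet (60% fat) for 16 weeks and carried loxP sites in both Lpcat3 alleles (Lpcat3 fl/fl). The Lpcat3KOMac mice also carried 1 LysM Cre allele, which drives the recombinase in myeloid cells from the lysozyme gene Lyz2, while the WT mice were littermates without Cre. The labels give neither sex nor age. LPCAT3 places polyunsaturated fatty acids, mainly arachidonic acid, into membrane phospholipids.

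Every ribosome holds 1 copy of nearly every ribosomal protein, and the stalk proteins RPLP1 and RPLP2 are present in more copies. Growing and secreting cells therefore make these transcripts in large and closely matched amounts. Most of the mRNAs are short and begin with a run of pyrimidines, the TOP motif, through which LARP1 and the kinase mTOR control their translation, and many host small nucleolar RNAs in their introns. Of the 79 members, 29 contained an annotated small nucleolar RNA gene on the same strand, 55 such genes in all.

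The promoter sequences of a few members are given first, because some of the members hold short elements there that the choice by name did not use. RefSeq promoters of the GRCm38.p6 build, from 250 bases before to 50 bases after an annotated start, were at hand for 59 of the 79 members. Shown 5′ to 3′ on the strand of the gene are 75 bases, 60 before and 15 from the annotated start on, for the 7 members in this table that had an unadjusted p-value under 0.05 between genotypes (given further on), in order of their log2 fold change and with both annotated starts of Rps21, and then for Rplp0, a common reference gene. Capitals mark matches to the motifs described after the sequences.
Rps28, chr17:33824548-33824622, minus strand: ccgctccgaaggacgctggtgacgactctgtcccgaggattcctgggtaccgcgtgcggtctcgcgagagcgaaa
Rps21, chr2:180257319-180257393, plus strand: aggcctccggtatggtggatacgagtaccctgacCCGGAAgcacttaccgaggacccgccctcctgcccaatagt
Rps21, chr2:180257389-180257463, plus strand: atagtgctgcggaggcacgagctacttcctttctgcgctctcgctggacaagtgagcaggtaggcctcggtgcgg
Rpl37a, chr1:72711200-72711274, plus strand: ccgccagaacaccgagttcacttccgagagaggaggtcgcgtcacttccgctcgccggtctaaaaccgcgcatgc
Rps27, chr3:90213634-90213708, minus strand: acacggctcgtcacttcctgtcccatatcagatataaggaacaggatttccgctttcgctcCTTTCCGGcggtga
Rpl37, chr15:5116553-5116627, plus strand: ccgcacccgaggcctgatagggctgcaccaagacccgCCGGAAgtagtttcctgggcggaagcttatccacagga
Rpl38, chr11:114668520-114668594, plus strand: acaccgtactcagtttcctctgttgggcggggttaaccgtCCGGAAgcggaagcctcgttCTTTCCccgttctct
Rplp2, chr7:141447591-141447665, plus strand: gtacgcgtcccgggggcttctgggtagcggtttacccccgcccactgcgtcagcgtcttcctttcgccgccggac
Rplp0, chr5:115559407-115559481, plus strand: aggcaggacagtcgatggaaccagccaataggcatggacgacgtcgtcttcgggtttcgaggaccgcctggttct

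In the Rpl38 window the pyrimidine run CTTTCC began at the annotated start itself. In the Rps27 window CTTTCC overlapped TTCCGG, the reverse complement of CCGGAA. Over the full promoter windows, CCGGAA, the core recognised by ETS factors, was found on either strand in 33 of the 59 members (55.9%), against 29.3% of the 11354 tested genes with a promoter. On the sense strand alone CTTTCC was found in 25 members (42.4%, against 17.4%) and the other pyrimidine run searched, CTCTTT, in 21 (35.6%, against 12.9%). AAGATGG, a form of the YY1 site, was found on either strand in 9 members (15.3%, against 8.23%), and TATAAA, the TATA box, on the sense strand in 6 (10.2%, against 5.92%). CACGTG, the E-box recognised by MYC and MAX, reads the same on both strands and was found in 6 members (10.2%, against 11.2%). Of the 7 members with a small p-value 5 held CCGGAA in the full window and 2, Rps28 and Rpl37a, did not. A match is a description of the sequence and no evidence of binding. Between genotypes, the median log2 fold change was -0.14 for the 33 tested members with CCGGAA and -0.15 for the 24 without, and -0.14 for the 25 with CTTTCC and -0.15 for the 32 without.

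The libraries held 44954224 to 71392812 counts. Levels are in CPM, that is counts scaled by library size and composition with the TMM method, and are listed for mice 1, 2 and 3 in this order. Lpcat3 was at 85.0, 66.2 and 61.2 CPM in WT and 19.5, 33.3 and 19.4 CPM in Lpcat3KOMac mice. Lyz2, which the Cre allele interrupts, was at 4695 to 7659 CPM in WT and 1533 to 2980 CPM in Lpcat3KOMac mice. The counts of both genes were thus lower in every mouse labelled Lpcat3KOMac. All 8 Kupffer cell markers, such as Clec4f, Cd5l and Vsig4, were detected, with a summed level of 32010 to 44270 CPM in WT and 25360 to 34570 CPM in Lpcat3KOMac mice. Hepatocyte RNA was uneven: Alb, Apoa1, Ttr, Trf and Fgb summed to 19020, 1980 and 1981 CPM in WT and to 4643, 12710 and 4470 CPM in Lpcat3KOMac mice.

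The ribosomal protein transcripts were abundant and even between mice. Their median level was 156 CPM per kilobase of exon, against 3.72 for all 16134 tested genes, and 74 of the 77 members tested lay above the 90th percentile of all genes. On this scale the highest were Rplp1 at 985, Rps3a1 at 509, Rpl8 at 474, Rps23 at 470 and Rps29 at 426. The lowest were the paralog Rpl39l at 0.883, Rpl22l1 at 28.8, Rpl7l1 at 31.3, Rps15a at 33.1 and Rps19 at 43.7. The exonic length used here, that of the files, was longer than the principal mRNA for most members. It was shorter for Rps23 (756 against 937 bases) and Rps24 (840 against 1613 bases). Ranked by the length of the principal mRNA instead, the members kept this order only in part (Spearman's rho 0.563 across the 77 genes, which share the same libraries). Rps15a and Rps19 ranked low through exonic lengths of 6270 and 4685 bases. Per kilobase of principal mRNA (640 and 633 bases) both were at 324. The lowest were then Rpl39l at 1.33, Rps20 at 59.4, Rpl7l1 at 62.3 and Rpl24 at 79.1.

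**Figure D1:**
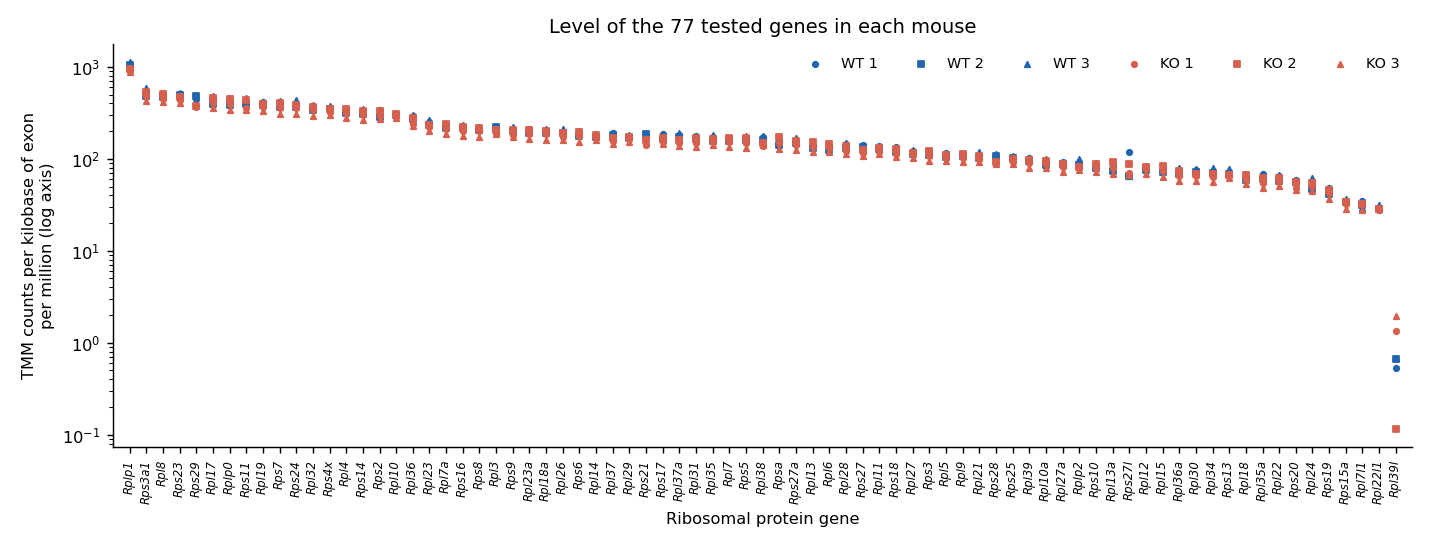
Level of each of the 77 tested members in each mouse, in CPM per kilobase of exon on a log axis, ordered by the mean of the 6 mice. The symbols of the 6 mice lie close together for each gene except Rps27l and, at the far right, Rpl39l, and Rplp1 is the highest at a mean of 985.

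The coefficient of variation over the 6 mice had a median of 9.45% among the members and 18.3% among all tested genes. Gene lists described further on were similarly even. The median was 8.14% for ribosome biogenesis factors, 9.08% for translation factors and other TOP mRNAs, 9.11% for regulators and 9.88% for reference genes. It was higher for mitochondrial ribosomal protein genes (11.7%) and host genes of small nucleolar RNAs (13.4%). Among the members the coefficient was smallest for Rpl10 (4.80%), Rpl29 (5.22%) and Rpl22l1 (5.39%). It was largest for Rpl39l (73.9%), Rps27l (26.2%) and Rps29 (13.6%). The protein of Rpl10 sits near the transfer RNA sites and joins the large subunit late. Rpl10 had 632, 618 and 648 CPM in WT and 582, 632 and 575 CPM in Lpcat3KOMac mice. These groups overlapped through Lpcat3KOMac mouse 2.

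Between genotypes the members differed little in size and nearly all in the same direction. The median log2 fold change of Lpcat3KOMac against WT was -0.14, or 90.4% of the WT level, against -0.04 for all tested genes. Of the 77 tested members, 76 had a negative log2 fold change (98.7%, against 59.9% of all tested genes), or 60 of 77 where libraries were scaled by their total counts alone (77.9%, against 35.16% of all genes). That scaling moved the median of all genes to 0.06 and that of the members to -0.05, so that their difference was -0.11 under either scaling. None passed the test: edgeR's quasi-likelihood test called 0 members at an adjusted p-value under 0.05, as it called 0% of all genes, and the smallest adjusted p-value of a member was 1. An unadjusted p-value under 0.05 was found for 10 members, or 12.99% of those tested, against 2.64% of all genes. All 10 were lower in Lpcat3KOMac mice, as were 1.57% of all genes. The values come from bulk RNA, in which fewer cells of a type and less RNA per cell cannot be told apart.

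The members move together within a library, so their common direction rests on 6 mice and not on 77 genes. Apart from Rpl39l, 52 of 76 members were highest in WT mouse 3, 12 in WT mouse 1, 10 in Lpcat3KOMac mouse 2 and 2 in WT mouse 2. Lpcat3KOMac mouse 3 held the lowest value for 71 of the 76. The median deviation of the members from their mean over the 6 mice was 0.09, -0.00 and 0.14 on the log2 scale in WT and -0.07, 0.06 and -0.22 in Lpcat3KOMac mice, so that Lpcat3KOMac mouse 2 lay above WT mouse 2. Without Lpcat3KOMac mouse 3 the median log2 fold change was -0.04, against -0.01 for all genes. In that fit 60 of 77 members were lower (77.9%, against 53.13% of all genes). An unadjusted p-value under 0.05 was left for 2, Rps28 and Rps29, as for 2.31% of all genes. The number of members with such a p-value was 3 without WT mouse 3, where 3.28% of all genes had one, and 2 without Lpcat3KOMac mouse 1 (1.09% of all genes). It was 15 without Lpcat3KOMac mouse 2 (1.48% of all genes), and 1 of these, Rpl39l, was higher. Without WT mouse 2 it was 9 (1.37% of all genes). Without WT mouse 1 it was 7 of 77, a smaller share than the 12.3% of all genes in that fit.

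**Figure D2:**
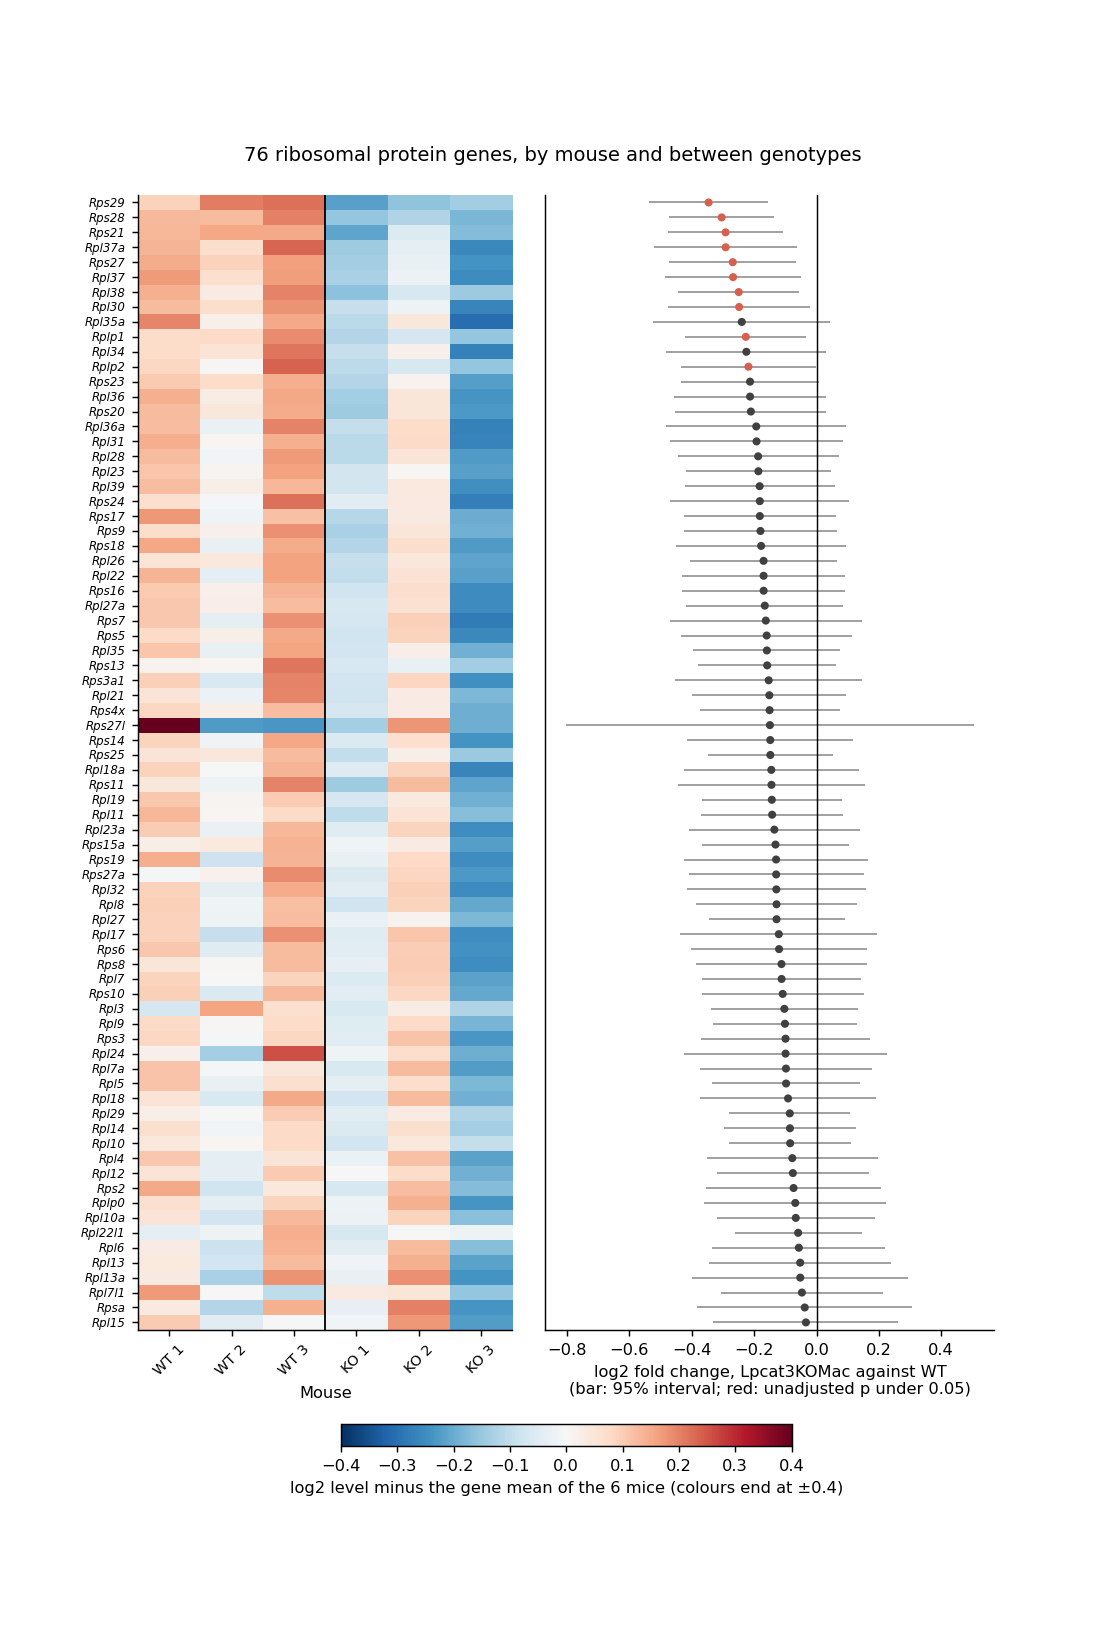
Left, log2 level of 76 members in each mouse relative to the mean of the 6 mice, with red above and blue below that mean; right, log2 fold change of Lpcat3KOMac against WT with its 95% interval, in red where the unadjusted p-value is under 0.05. All 76 points lie below 0 under TMM scaling. With total counts alone as the scaling 60 of the 77 tested members are lower (77.9%, against 35.16% of all genes). The column of Lpcat3KOMac mouse 3 (KO 3) holds the lowest value in 71 rows.

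The lowest log2 fold changes of all members were those of small subunit genes, Rps29, Rps28 and Rps21. All 29 genes of the subunit had a negative log2 fold change, with a median of -0.15, and 4 had an unadjusted p-value under 0.05. Rps29, which encodes a small zinc-binding protein of the head of the subunit, was at 312, 338 and 341 CPM in WT and 252, 262 and 266 CPM in Lpcat3KOMac mice, with every Lpcat3KOMac value below every WT value. Its log2 fold change was -0.35 (SE 0.077, unadjusted p = 0.00457 in edgeR), and a two-sided exact permutation test gave p = 0.1, the smallest that 3 mice against 3 allow. Rps28, whose protein lies by the exit of the mRNA channel, was at 159, 159 and 167 CPM in WT and 131, 134 and 128 CPM in Lpcat3KOMac mice, again without overlap. Its log2 fold change was -0.30 (SE 0.068) and its exact p-value also 0.1. DESeq2 called these 2 members, with an adjusted p-value of 0.00681 for Rps29 and 0.0242 for Rps28, among 14 genes called of 13935 (0.1%). In the other alternatives and in edgeR itself the adjusted p-value of both lay between 0.294 and 1.

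Rps21, needed for the maturation of the small subunit RNA, was at 147, 149 and 149 CPM in WT and 116, 129 and 119 CPM in Lpcat3KOMac mice (log2 fold change -0.29, SE 0.074). Rps27, a zinc-finger protein, was at 147, 142 and 149 CPM against 121, 130 and 113 CPM (log2 fold change -0.27, SE 0.083). Both were lower in each Lpcat3KOMac mouse than in any WT mouse. The other end of the subunit was Rpsa, which is also known as a laminin receptor. It was at 494, 443 and 530 CPM in WT and 469, 552 and 408 CPM in Lpcat3KOMac mice, with the highest and the lowest value of the 6 both in Lpcat3KOMac mice (log2 fold change -0.04, 95% interval -0.38 to 0.31, exact permutation p = 0.8). Rps6, the substrate of S6 kinase, had a log2 fold change of -0.12, and Rps3, which also acts in DNA repair, one of -0.10.

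The stalk, through which the large subunit recruits elongation factors, is built of Rplp0, Rplp1 and Rplp2. Rplp1 was at 515, 517 and 559 CPM in WT and 452, 468 and 440 CPM in Lpcat3KOMac mice, and Rplp2 at 186, 176 and 206 CPM against 163, 168 and 157 CPM. In neither gene did the genotypes overlap, with log2 fold changes of -0.23 (SE 0.079) and -0.22 (SE 0.088) and an exact permutation p = 0.1 each. Rplp0, which anchors both to the ribosomal RNA, was at 694, 645 and 705 CPM in WT and 654, 732 and 564 CPM in Lpcat3KOMac mice. Here Lpcat3KOMac mouse 2 was the highest of all and mouse 3 the lowest, and the log2 fold change was -0.07 (SE 0.12, 95% interval -0.36 to 0.22, exact permutation p = 0.7). Whether Rplp0 differed from its partners was not tested.

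Among the rest of the large subunit, 4 members had an unadjusted p-value under 0.05. The zinc-finger protein genes Rpl37a and Rpl37 were at 253, 242 and 271 CPM against 209, 225 and 193 CPM, and at 167, 156 and 167 CPM against 136, 146 and 125 CPM, with log2 fold changes of -0.29 (SE 0.093) and -0.27 (SE 0.088). Rpl38, known for its part in the translation of Hox mRNAs, was at 92.9, 86.2 and 96.7 CPM against 75.1, 80.7 and 76.2 CPM (log2 fold change -0.25, SE 0.079). Rpl30, which also binds selenoprotein mRNAs, was at 226, 218 and 235 CPM against 195, 204 and 172 CPM (log2 fold change -0.25, SE 0.092). In all 4 the WT values lay above the Lpcat3KOMac values. Over the 48 tested genes of the subunit, 47 had a negative log2 fold change, with a median of -0.13.

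The smallest differences in the large subunit were those of Rpl15 at -0.03, Rpl7l1 at -0.05 and Rpl13a at -0.05 on the log2 scale. Rpl13a, which is known for repressing the translation of inflammatory mRNAs in macrophages, was at 175, 157 and 194 CPM in WT and 168, 194 and 145 CPM in Lpcat3KOMac mice, and the groups overlapped widely. Rpl5 and Rpl11, which bind the p53 regulator MDM2 outside the ribosome, had log2 fold changes of -0.10 and -0.14.

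In 15 members every Lpcat3KOMac mouse was below every WT mouse, or 19.5% of the members against 5.2% of all tested genes. In 0 members was every Lpcat3KOMac mouse higher, against 2.29% of all genes. The 15 were the 10 with an unadjusted p-value under 0.05 and Rpl34, Rpl23, Rps23, Rps13 and Rps25. The count was 7 when libraries were scaled by total counts alone, or 9.09% of the members against 1.44% of all genes. It was 46 without WT mouse 2 (59.7%, against 7.93% of all genes) and 57 without Lpcat3KOMac mouse 2 (74.0%, against 9.69%), where 1 further member was higher without overlap. Without WT mouse 1 it was 17 (22.1%, against 15.5%), with 1 further member higher. Without WT mouse 3, Lpcat3KOMac mouse 1 or Lpcat3KOMac mouse 3 it was 15 (19.5%, against 7.44 to 9.25%). For 72 of the 77 members the 95% interval lay within 0.5 on the log2 scale on both sides of 0, and the median SE was 0.104, against 0.227 for all genes.

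Some members have a paralog of nearly the same sequence, and reads that match both may be divided between them. Rpl39l, a paralog of Rpl39 known from the testis, was the single member with a positive log2 fold change, 0.84 with an SE of 0.87. It rested on 29, 28 and 26 counts in WT and 65, 5 and 76 counts in Lpcat3KOMac mice, and its log2 fold change was 0.24 without Lpcat3KOMac mouse 3 and 1.40 without mouse 2. Rpl39 itself was at 147, 137 and 148 CPM in WT and 128, 139 and 114 CPM in Lpcat3KOMac mice (log2 fold change -0.18). Rps27l, a target of p53, was at 96.1, 53.7 and 53.5 CPM in WT and 57.2, 71.1 and 55.0 CPM in Lpcat3KOMac mice. Its highest values came from WT mouse 1 and Lpcat3KOMac mouse 2, the mice with the most hepatocyte RNA. Its log2 fold change of -0.15 became 0.19 without WT mouse 1, and -0.24 with hepatocyte RNA as a further term in edgeR. In that edgeR fit its unadjusted p-value was under 0.05, as for 9.17% of all genes, and its adjusted p-value was 0.479.

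Rpl22l1 was at 55.6, 56.4 and 63.3 CPM in WT and 54.7, 57.2 and 56.4 CPM in Lpcat3KOMac mice, a log2 fold change of -0.06, and its partner Rpl22 had one of -0.17. Rpl7l1 and Rpl7 had -0.05 and -0.11, and the difference within these pairs was not tested. Rpl3 was at 598, 699 and 655 CPM in WT and 601, 640 and 577 CPM in Lpcat3KOMac mice. Its muscle paralog Rpl3l held 3 to 10 counts in each library and was not tested. Rpl10l, the copy of the X-linked Rpl10 that is used in the testis, held 0 counts in all 6 libraries, where the floor of 3 counts corresponds to at most 0.0667 CPM. The X-linked Rps4x had a log2 fold change of -0.15.

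As a share of all counts the members took 2.15, 2.17 and 2.48% in WT and 2.21, 2.38 and 1.98% in Lpcat3KOMac mice. The means were 2.27% ± 0.185 (SD, n = 3) in WT and 2.19% ± 0.200 (SD, n = 3) in Lpcat3KOMac mice, and the groups overlapped, with WT mouse 3 highest and Lpcat3KOMac mouse 3 lowest. The difference of -0.072 percentage points was smaller than the SD of either group, and it turned to 0.0347 points without WT mouse 3 and to 0.0327 points without Lpcat3KOMac mouse 3. The large subunit took 1.36% ± 0.107 against 1.32% ± 0.117 and the small subunit 0.909% ± 0.0783 against 0.871% ± 0.0826 (SD, n = 3 in each group). With TMM scaling the summed level was 23603, 22190 and 24364 CPM in WT and 21156, 23273 and 19255 CPM in Lpcat3KOMac mice.

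**Figure D3:**
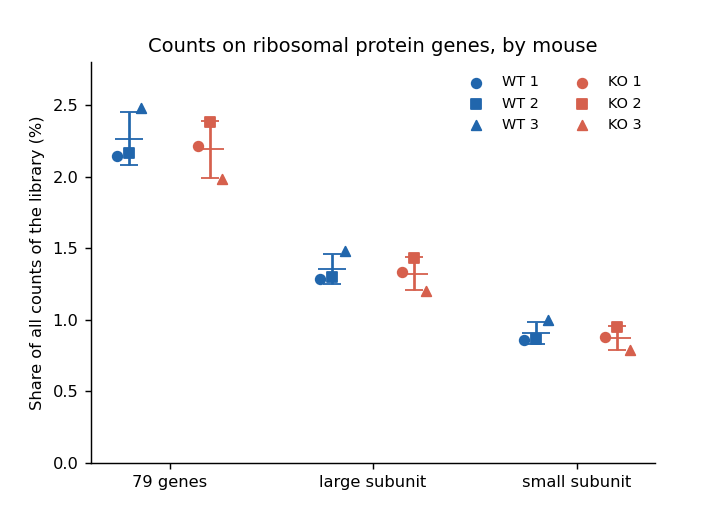
Share of all counts of a library on the 79 members and on those of each subunit, in percent, with a symbol per mouse and bars for the mean and SD of 3 mice. The genotypes overlap in all 3 sets, and the share of all members ranges from 1.98% in Lpcat3KOMac mouse 3 (KO 3) to 2.48% in WT mouse 3.

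The differences went with the length of the mRNA. The principal mRNAs of the members were 271 to 3706 bases long, with a median of 751. The 10 with an unadjusted p-value under 0.05 had mRNAs of 271 to 835 bases and a median of 407.5, against a median of 775 for the other 67. Of the 10 members with the shortest mRNAs, 6 had such a p-value, and their median log2 fold change was -0.24. Of the 10 with the longest, 0 had one, and their median was -0.09. Across the 77 members Spearman's rho of log2 fold change with mRNA length was 0.503, a description of genes that share the same 6 libraries. Across 13522 other protein-coding genes it was 0.275.

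Medians of other protein-coding genes in the same bins of length were set beside those of the members. Below 500 bases the median log2 fold change was -0.22 for 16 members and -0.18 for 116 other genes. From 500 to 750 bases it was -0.13 for 22 members and -0.16 for 357 other genes, and from 750 to 1000 bases -0.14 for 21 members and -0.13 for 539 others. From 1000 to 1500 bases it was -0.09 for 12 members and -0.10 for 1474 others. From 1500 to 2500 bases it was -0.10 for 5 members and -0.06 for 3428 others. From 2500 to 5000 bases 5395 other genes had a median of -0.02, and the single member there, Rps20, had a log2 fold change of -0.21. Its place in this bin rests on an annotated principal mRNA of 3706 bases, of which 357 are coding. Above 5000 bases, where no member lay, other genes had a median of 0.02. In the bins below 1500 bases 95.45 to 100% of the members were lower, against 74.08 to 78.43% of the other genes.

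With an offset in edgeR for the trend of the counts with mRNA length, the median of the members minus that of all genes was -0.0383, against -0.106 without it. The median of the members itself was -0.17 in this fit and that of all genes -0.13, and 76 of 77 members were lower. In that fit 6 members had an unadjusted p-value under 0.05, namely Rpl37, Rpl37a, Rps20, Rps21, Rps28 and Rps29, and 2.88% of all genes. Rps20 entered it with its annotated 3706 bases, and had an unadjusted p = 0.0771 in edgeR without the offset. With an offset for the exonic length of the files this difference was -0.0867, and the median of the members -0.22. Length thus moved with the result, and neither RNA integrity nor the size selection of the libraries was measured in the files. With hepatocyte RNA (the mean log2 CPM of its 5 markers) as a further term, the median of the members was -0.16 and 16 members had an unadjusted p-value under 0.05, alongside 9.17% of all genes.

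**Figure D4:**
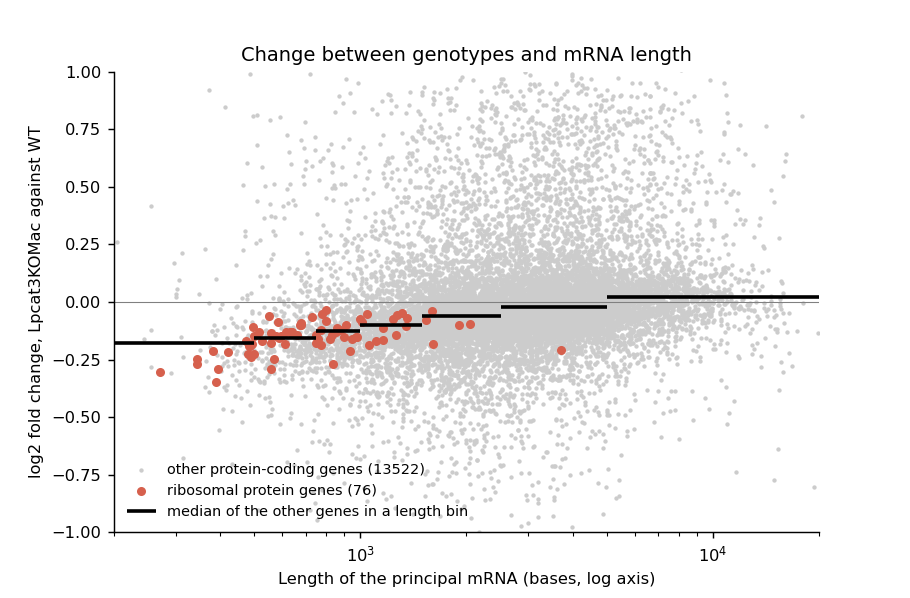
Log2 fold change of Lpcat3KOMac against WT (vertical axis, drawn from -1 to 1) by length of the principal mRNA in bases (log axis) for 76 members (red) and 13522 other protein-coding genes (grey), with the median of the other genes in each length bin as black lines. The members lie below 0, as 76 of 77 do under TMM scaling (98.7%, against 59.92% of all genes). With total counts alone 60 of 77 do (77.9%, against 35.16%). The medians of the other genes run from -0.18 below 500 bases to 0.02 above 5000 bases. Rps29 at -0.35, Rps28 at -0.30 and Rps20 at -0.21 lie below the line of their bin. Rps20 stands among the long mRNAs only by its annotated principal mRNA of 3706 bases, of which 357 are coding.

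Gene structure and counting could touch these values too. Exons of 36 members overlapped another gene, and of 17 a gene on the opposite strand, among them Rpl5 with Fam69a over 953 bases, Rpl35 over 821 bases and Rps25 over 668 bases. The levels of these 17 members are uncertain where reads were counted without strand. On the same strand Rpl13a overlapped other genes over 748 bases and Rpl24 over 484 bases. Their levels are uncertain whatever the strand setting. For the 17 members with an overlap on the opposite strand the median log2 fold change was -0.13, and for the other 60 tested members -0.15. For the 29 members with a small nucleolar RNA gene inside it was -0.13, and for the 48 without -0.15. The 280 listed pseudogenes named after ribosomal proteins held 0.274 to 0.316% of the counts of the members.

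Rplp0 served in the study as the reference gene of its PCR measurements. Among 12 common reference genes it ranked the 6th by coefficient of variation, at 8.96%. Hprt at 4.24%, Ppia at 4.79%, Tbp at 5.98%, Ywhaz at 6.51% and Gusb at 7.84% varied less. B2m at 10.8%, Gapdh at 14.2%, Actb at 15.4%, Pgk1 at 17.1%, Polr2a at 22.2% and Sdha at 26.2% varied more. None of the 12 was called by edgeR, and 0 had an unadjusted p-value under 0.05. In 3 of them, Hprt, Ppia and B2m, every Lpcat3KOMac mouse was below every WT mouse, as in 5.2% of all tested genes. Their log2 fold changes were -0.10, -0.11 and -0.19.

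Lpcat3 counts divided by Rplp0 counts, relative to the mean of the WT mice on the log scale, were 1.19, 0.997 and 0.843 in WT and 0.290, 0.442 and 0.334 in Lpcat3KOMac mice. The genotypes did not overlap. The ratio in Lpcat3KOMac mice was 35.0% of that in WT mice, a log2 difference of -1.52 (two-sided exact permutation p = 0.1, the smallest possible with n = 3 in each group). With Gapdh, Actb, Hprt, Tbp or the mean of all tested members as the reference it was 32.2% to 36.8%.

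**Figure D5:**
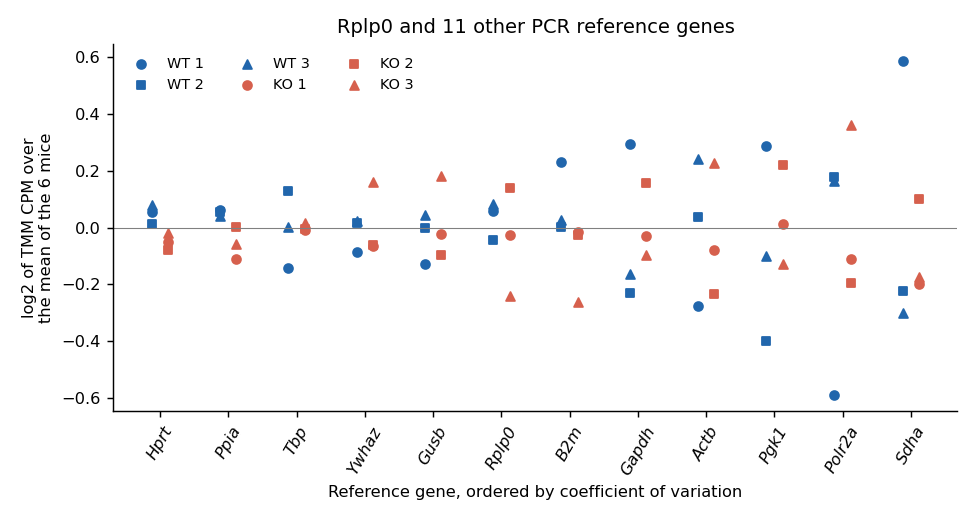
Level of Rplp0 and 11 other reference genes in each mouse, as log2 of the TMM-scaled CPM over the mean of the 6 mice, ordered from left to right by coefficient of variation. Rplp0 stands at the 6th place, with Lpcat3KOMac mouse 2 (KO 2) highest and mouse 3 (KO 3) lowest, and spreads less than Gapdh or Actb.

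Other parts of the translation machinery were read from lists of genes. Of all tested genes 59.9% had a negative log2 fold change. The 3 further ribosomal proteins or partners reported here had negative log2 fold changes, -0.25 for Rpl36al, -0.22 for Fau (the precursor of RPS30) and -0.07 for the scaffold protein gene Rack1. In Rpl36al and Fau every Lpcat3KOMac mouse was below every WT mouse, as in 5.2% of all tested genes. Of 18 translation factors and other mRNAs of the TOP class, 14 were lower and 4 higher, with a median of -0.05. Their lowest were Tpt1 at -0.17 and Eif3k at -0.15, and their highest Eef2 and Eif4b at 0.04 each. These 18 mRNAs had a median length of 1829 bases, against 751 for the members. Other protein-coding genes of 1500 to 2500 bases had a median log2 fold change of -0.06. None of the genes of these lists had an unadjusted p-value under 0.05.

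Next came genes that act before the ribosome is finished. Of 20 ribosome biogenesis factors, 9 were lower and 11 higher, with a median of 0.02, from Fbl, the methyltransferase of ribosomal RNA, at -0.15 to Nop2 at 0.19. Of 13 regulators of ribosome production, such as Myc, Mtor and Larp1, 8 were lower and 5 higher, with a median of -0.00, from Eif4ebp1 at -0.18 to Larp4 at 0.10. The median mRNA length was 2781.5 bases for the biogenesis factors and 5459 bases for the regulators, against 751 for the members. Other protein-coding genes had a median log2 fold change of -0.02 from 2500 to 5000 bases and of 0.02 above. None of either list had an unadjusted p-value under 0.05. Of 6 host genes of small nucleolar RNAs, 5 were lower, and Snhg8 at -0.39 had an unadjusted p = 0.0223 in edgeR.

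The mitochondrial ribosome is a separate machine, encoded by other nuclear genes with longer mRNAs (median 1251.5 bases in this list). Of its 78 genes, 73 were lower and 5 higher, beside 76 of 77 tested cytosolic members and 59.9% of all genes. Their median was -0.12, and 2 had an unadjusted p-value under 0.05, both lower, against 1.57% of all genes. In 15 of the 78 every Lpcat3KOMac mouse was below every WT mouse, as in 15 of the 77 cytosolic members, against 5.2% of all genes. The coefficient of variation had a median of 11.7%. Their summed level was highest in WT mouse 1 at 2155 CPM, and was 1724 and 1739 CPM in WT mice 2 and 3 and 1637 to 1831 CPM in Lpcat3KOMac mice. The mice therefore ranked differently than for the cytosolic members, of which WT mouse 3 held the most. Whether the medians of these lists differ was not tested.

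Besides hepatocyte RNA, which in WT mouse 1 and Lpcat3KOMac mouse 2 came nearest to the summed Kupffer cell markers, RNA of other cells was detected. Endothelial markers summed to 795 to 909 CPM in WT and 880 to 1063 CPM in Lpcat3KOMac mice, and stellate cell markers to 41.2 to 134 CPM and 90.3 to 164 CPM. Lymphocyte markers lay at 2.94 to 5.07 CPM and 3.49 to 4.55 CPM, erythroid markers at 24.6 to 71.1 CPM and 70.0 to 73.0 CPM, and neutrophil markers at 1.96 to 2.95 CPM and 3.94 to 5.29 CPM. Of the neutrophil markers Ly6g was too low to be tested. The median log2 fold change was 0.49 for the endothelial, 0.32 for the stellate cell, 0.08 for the lymphocyte, 0.58 for the erythroid and 0.99 for the neutrophil markers. Among these Kdr (log2 fold change 0.79, unadjusted p = 0.0287 in edgeR) and S100a8 (0.99, unadjusted p = 0.0353 in edgeR) had an unadjusted p-value under 0.05, and every Lpcat3KOMac mouse was above every WT mouse for S100a8. The Kupffer cell markers were lower in Lpcat3KOMac mice for 8 of 8 genes by log2 fold change, with a median of -0.25 and an unadjusted p-value under 0.05 for 2, Clec4f and C1qa. The part of these cells, other than the hepatocyte term given above, in the levels of the ribosomal protein genes was not tested.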

How the data were processed

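The authors deposited raw counts of reads per Ensembl gene, 1 table per mouse, from poly-A selected RNA. The submitters' processing notes name Trimmomatic 0.36, STAR 2.5.2b and featureCounts of Subread 1.5.2, on GRCm38. The strand setting and the handling of reads with several matches are not given in the sources used here. Symbols, principal mRNAs and overlaps came from GENCODE M21, which held 49056 of the 49315 gene identifiers. Groups and replicate numbers came from the labels, and nothing there pairs the mice.

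The model over genotypes used edgeR 4.0.16 under R 4.3.3 (TMM scaling, minimum count 10, robust quasi-likelihood test, genotype as the only term), with Benjamini-Hochberg adjustment over all 16134 genes tested. The procedure was tested on simulated data. Alternatives included DESeq2 1.42.0, limma-voom (limma 3.58.1), other scalings and filters, offsets for length (loess span 0.4), a hepatocyte covariate, a replicate block and leaving out each mouse. The offset for mRNA length was chosen after seeing the data.

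The genes named were the 4 members outside the numbered series (Rpsa, Rplp0, Rplp1 and Rplp2), extremes of fold change, level and variation, paralog pairs, untested members and those with a small p-value, besides a few chosen afterwards for their known roles (Rps3, Rps6, Rpl5, Rpl11 and the members not overlapping). Members and lists were chosen with earlier results of these data known. Of the hepatocyte markers, Tf is listed as Trf. A few genes of the lists are not reported here. Replicates are separate mice. At the depth of 44954224 to 71392812 counts, the floor of 3 counts covers counting error only.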

Additional observations from a re-analysis of the deposited data

How the results depend on the processing

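The median log2 fold change of the members was negative under all 18 alternatives. That of all genes moved from -0.1347 with the mRNA length offset to 0.0566 with total counts alone. The median of the members minus that of all genes ranged from -0.1707 without Lpcat3KOMac mouse 2 to -0.0311 without Lpcat3KOMac mouse 3. The 10 members with an unadjusted p-value under 0.05 kept a negative log2 fold change in each alternative. They had been chosen in these same 6 libraries. The number of members with an unadjusted p-value under 0.05 was 10 in edgeR, beside 2.64% of all genes, and 0 with total counts alone, beside 1.98%. It was 16 with the hepatocyte covariate, beside 9.17% of all genes. With the mRNA length offset, which was chosen after seeing the data, it was 6, beside 2.88%. This number ranged from 2 to 15 when a mouse was left out, beside 1.09 to 12.3% of all genes. The 12.3% came without WT mouse 1, where 7 of 77 members were a smaller share. The cause was not tested. DESeq2 called 2 members where edgeR called 0, Rps29 (log2 fold change -0.34, adjusted p = 0.00681) and Rps28 (adjusted p = 0.0242), and it also called Lpcat3 (log2 fold change -1.55, adjusted p = 0.004). Limma-voom called 0 members, and 9 had an unadjusted p-value under 0.05, as had 2.5% of all genes. The median log2 fold change was -0.0518 with total counts alone and lay between -0.1964 and -0.0444 without a mouse. The number of members not overlapping in either direction was 7 with total counts alone, beside 6.365% of all genes. It was 15 to 58 without a mouse, beside 11.27 to 32.68% of all genes. Without WT mouse 1 it was 18 of 77, a smaller share than the 32.68% of all genes there. The direction changed for 18 members in at least 1 fit without a mouse. Total counts alone moved the median of all genes from -0.04 to 0.06, and with it the direction of 16 members. Rplp0 turned to 0.0253 with total counts alone, below that median, and ranged from -0.1476 to 0.0539 without a mouse. Rpsa turned to 0.0541 with total counts alone, also below it, and ranged from -0.1413 to 0.0923 without a mouse. Rps27l turned to 0.1898 without WT mouse 1 and ranged down to -0.2941 without another mouse.

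Nothing in the labels pairs the mice by their numbers 1 to 3. The deviations of equally numbered mice from their group mean correlated at -0.303, -0.596 and 0.36 across genes. Deviations within a group of 3 sum to 0, so these values cannot decide whether mice of one number were handled together. With the replicate block 3 members had an unadjusted p-value under 0.05, as had 0.855% of all genes. With the replicate block and the offset for exonic length 1 member had, as had 0.707% of all genes. In either fit 0 members were called. With 3 mice in each group an exact test of a single gene cannot go below p = 0.1.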
